A study of Rattus norvegicus with 4 samples.

Results

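Nfix gives rise to the most abundant circular RNA of sham-operated rat sciatic nerve in these data. Its circRNAs were taken as every listed circRNA whose host symbol is Nfix (ENSRNOG00000002983), which gave 3 of 4942 circRNAs, from 1 of 2327 host genes. The gene was chosen on measured values, namely its junction reads, its share of the reads and its rank in crushed and sham nerve. Those values are therefore given below as a description, with no test of Nfix itself.

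Sprague-Dawley rats were at postnatal week 6, and total RNA of their sciatic nerve, sampled 24 h after surgery, was sequenced. In the crush group (2 libraries) forceps were closed 2 times on 3 mm of nerve, for 15 s each with 3 s between, and that piece was taken with 1 mm of nerve at either end. In the sham group (2 libraries) the nerve was exposed and not crushed. No genotype, transgene or drug is named for either group, and a topical antibiotic powder was used at wound closure in the crush operation. Whether the 2 libraries per group stem from different rats is not stated in the labels, so the spread between them may be technical. Crush libraries held 8250 and 9027 back-splice junction reads, and sham libraries 9018 and 8726. These counts limit the precision of every share below, and the intervals given cover counting error only.

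Nfix encodes a nuclear factor I protein, a transcription factor that binds DNA as a dimer through an N-terminal domain shared with its paralogs Nfia, Nfib and Nfic. The family acts in the development of brain, glia and skeletal muscle, where Nfix takes part in the switch from embryonic to fetal muscle genes. A circRNA forms when the splicing machinery joins the end of an exon back to the start of the same or an earlier exon. The resulting ring has no free ends, is usually stable, and is recognised in sequencing reads by the back-splice junction. Each ring has 1 such junction, so junction reads do not scale with the length of the molecule as reads over a whole transcript do.

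The leading Nfix circRNA is an exonic ring on the minus strand of chromosome 19 in Rnor_6.0, from 25886356 to 25886887. Its span, the distance between its ends with any intron included, is 531 bases. The second Nfix circRNA, from 25861153 to 25886887, is classed as intronic and spans 25734 bases. It shares the end at 25886887 with the leading ring, and on the minus strand this is the upstream end, the acceptor side of the back-splice. Its downstream end lies 25203 bases beyond that of the leading ring. The third, from 25834566 to 25841742, is exonic, spans 7176 bases and shares no end with the others. It begins 45145 bases downstream of the shared end.

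**Figure D1:**
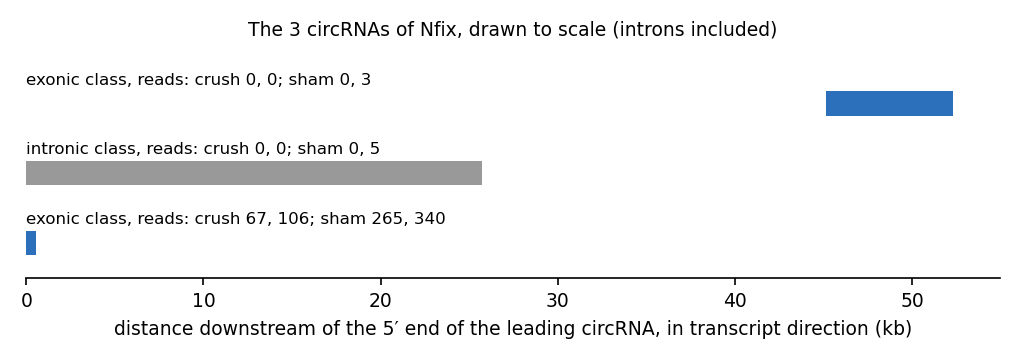
Map of the 3 Nfix circRNAs against distance in kb from the upstream end of the leading ring, in the direction of transcription, with junction reads per library written above each bar. Bars show genomic span with introns, blue for the exonic class and grey for the intronic class. The 531-base ring at the left holds nearly all reads, and the other 2 have reads in sham replicate 2 alone.

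For the leading ring, 67 and 106 junction reads were counted in the 2 crush replicates, against 265 and 340 in the 2 sham replicates. It was listed in all 4 libraries, with 778 reads in all. The intronic circRNA had 5 reads and the downstream exonic one 3 reads, both in sham replicate 2, and both were listed at 0 in the other libraries. No count of 1 occurs in the files, so a 0 means that the ring was not reported there and can hide single reads. The leading ring thus carried 99.0% of the 786 Nfix reads, and the other rings were too rare to compare between groups: 1 of the 3 passed the filter of at least 5 reads in at least 2 libraries.

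In SRPBM, the deposited signal in which junction reads are scaled by a total of the library, summed Nfix stood at 4.86 and 6.34 after crush and at 19.3 and 27.4 after sham. Both sham libraries lay above both crush libraries. The lower sham library was 3.05 times the higher crush library, while libraries of the same group differed 1.30-fold after crush and 1.42-fold after sham. The group means were 5.60 ± 1.05 after crush and 23.3 ± 5.70 after sham (SD, n = 2). In whole nerve, a change in the number of cells that hold the ring and a change in the rings per cell cannot be told apart.

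In the model fitted over all 434 tested host genes, summed Nfix reads had a log2 change of -1.63 ± 0.29 (SE), crush minus sham. The 434 hosts had a median log2 change of 0.11, and 56 of them had a fitted change lower than that of Nfix. The leading ring alone had a log2 change of -1.60 ± 0.39 (SE) among 428 tested circRNAs, whose median was 0.03. With the library totals implied by SRPBM in place of TMM scaling, the change of summed Nfix was -2.06, and that scaling moved the median of all hosts to -0.30. The Nfix values share their direction with the choice of the gene, so no p is given for them. Over all tested hosts, 0.461% were called lower and 1.84% higher after crush (edgeR quasi-likelihood test, Benjamini-Hochberg adjusted p under 0.05). The 434 hosts include Nfix, so these are not shares over other genes alone. Across other filters, scalings and left-out libraries, the number called lower ran from 0 to 14. Leaving out crush replicate 2 gave 0, dropping the other crush library gave 4, and 11 were called when sham replicate 2 was removed.

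Nfix took 0.812% of all junction reads in crush replicate 1 (95% exact Clopper-Pearson interval 0.630% to 1.03%). It took 1.17% in crush replicate 2 (0.962% to 1.42%). In sham nerve its share was 2.94% in replicate 1 (2.60% to 3.31%) and 3.99% in replicate 2 (3.59% to 4.42%). The order of the libraries was therefore sham replicate 2, sham replicate 1, crush replicate 2 and crush replicate 1. The intervals of the sham libraries did not overlap, so these libraries differed from each other by more than counting error. Those of the crush libraries overlapped, which does not show that the crush libraries agreed within counting error. The group means of the share were 0.993 ± 0.256% in crushed nerve and 3.46 ± 0.742% in sham nerve (SD, n = 2).

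By rank among host genes, Nfix stood first in both sham libraries and in crush replicate 2, and ranked 6 in crush replicate 1. In crush replicate 1 the highest host was Mtmr3, a gene for a phosphoinositide phosphatase of the myotubularin family, with 95 reads. In crush replicate 2 the next host was Arid1a, a subunit gene of a SWI/SNF chromatin remodelling complex, with 96 reads against 106 for Nfix. In sham replicate 1 the next host was Ttc3, a ubiquitin ligase gene, with 230 against 265. In sham replicate 2 it was Mlip, a muscle gene whose product binds lamins, with 226 against 348. The lead over the next host was 1.10-fold in crush replicate 2, 1.15-fold in sham replicate 1 and 1.54-fold in sham replicate 2. No interval was computed for these leads, so the narrower ones may lie within counting error. A typical host was far lower, with a median of 3 or 4 reads per library among the hosts with any.

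**Figure D2:**
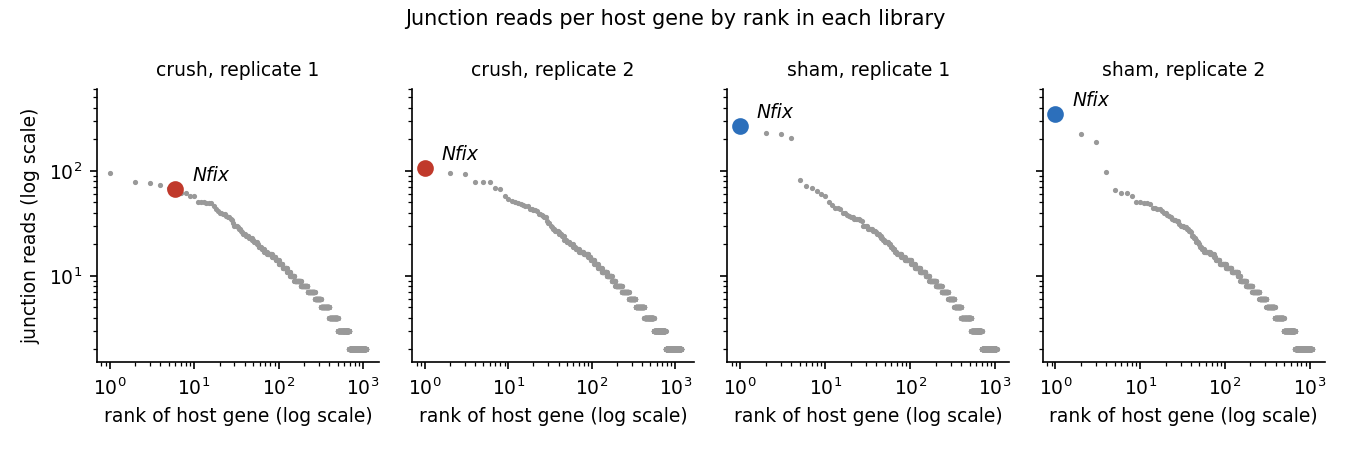
Junction reads of each host gene against its rank in each of the 4 libraries, both axes on a log scale, with 1 grey point per host gene with reads and Nfix as the coloured point. Nfix lies at the top of the curve in both sham libraries, with 265 and 348 reads, and in crush replicate 2, with 106, and ranks 6 in crush replicate 1, with 67.

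Among single circRNAs, the leading Nfix ring ranked first in the same 3 libraries and 3 in crush replicate 1. There an intergenic circRNA on chromosome 3, from 81127393 to 81143240, was highest with 151 reads. The same intergenic circRNA was next to Nfix in crush replicate 2, with 102 reads against 106, a ratio of 1.04. In sham replicate 1 the next ring came from Ralgapa1, a gene for a subunit of a Ral GTPase-activating complex, with 207 reads. In sham replicate 2 it was an intergenic ring on chromosome 10, from 94083626 to 94187819, with 277 reads.

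The Nfix ring also bears on how concentrated the circRNA pool looked. The 10 most abundant circRNAs of a library took 8.28 ± 0.17% of junction reads after crush and 15.6 ± 0.012% after sham (SD, n = 2). Without the leading Nfix ring, the 9 others took 7.59% and 6.99% of all junction reads after crush, compared with 12.7% and 11.7% after sham. The difference between the group means was -7.32 percentage points with Nfix and -4.89 without it, so most of the difference lay in the other rings.

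The 5 hosts with the highest mean SRPBM in sham nerve were Nfix, Mlip, Ttc3, Ralgapa1 and Spidr. Reads of Mlip numbered 76 and 79 in crushed nerve against 204 and 226 in sham nerve, and those of Ttc3 61 and 79 against 230 and 186. Nfix, Mlip and Ttc3 all had both crush libraries below both sham libraries. Of the 37 hosts with at least 100 reads over the 4 libraries, 14 (37.8%) had raw counts ordered that way and 13 had the opposite order. Reads of Ralgapa1 numbered 2 and 10 in crushed nerve and 225 and 7 in sham nerve, so its place rests on sham replicate 1. Spidr, a scaffold gene of DNA repair, had 49 and 93 against 82 and 98, with overlapping groups. After crush, Nfix also had the highest mean, 5.60 ± 1.05 SRPBM, but it was followed by Arid1a at 5.34 ± 0.57, Pan3 at 5.23 ± 0.71 and Mlip at 5.12 ± 0.56 (SD, n = 2). These 4 differed by less than the spread between replicates.

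**Figure D3:**
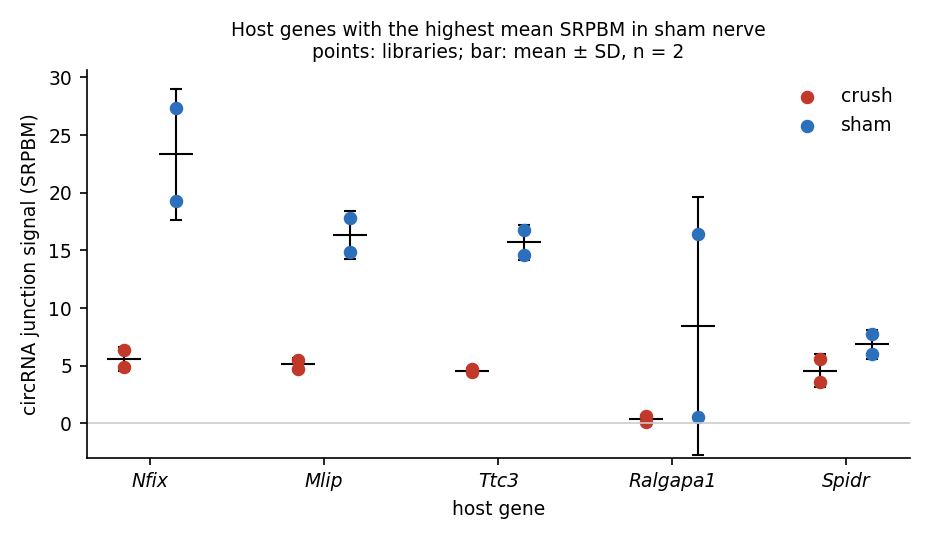
SRPBM of the 5 host genes with the highest mean in sham nerve, with 1 point per library (red for crush, blue for sham) and a bar for the mean ± SD of the 2 libraries of a group. Nfix is highest in sham nerve at 23.3 and close to Mlip and Ttc3 after crush, and Ralgapa1 is high in 1 sham library alone.

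Nfix drew nearly all of its signal from 1 ring, and other abundant hosts with few circRNAs also had a high share in their leading ring. Among the 37 hosts with at least 100 reads, the leading ring held a median of 70.2% of the reads, and the median number of circRNAs was 5. In the 8 of these hosts with 3 circRNAs or fewer, Nfix included, the lowest leading share was 88.7%. Wsb1, a ubiquitin ligase substrate receptor gene with 1 listed circRNA, was the only host of the 37 with a higher leading share than Nfix. Lifr, the gene of the leukemia inhibitory factor receptor, had 97.9% of its reads in 1 ring, and Emilin2, a gene for a matrix glycoprotein, had 97.1%. At the other end, Ash1l, a histone methyltransferase gene, spread 247 reads over 16 circRNAs, and its leading ring held 19.8%. Over all 2327 hosts, 1447 had a single circRNA and 230 had more than the 3 of Nfix.

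**Figure D4:**
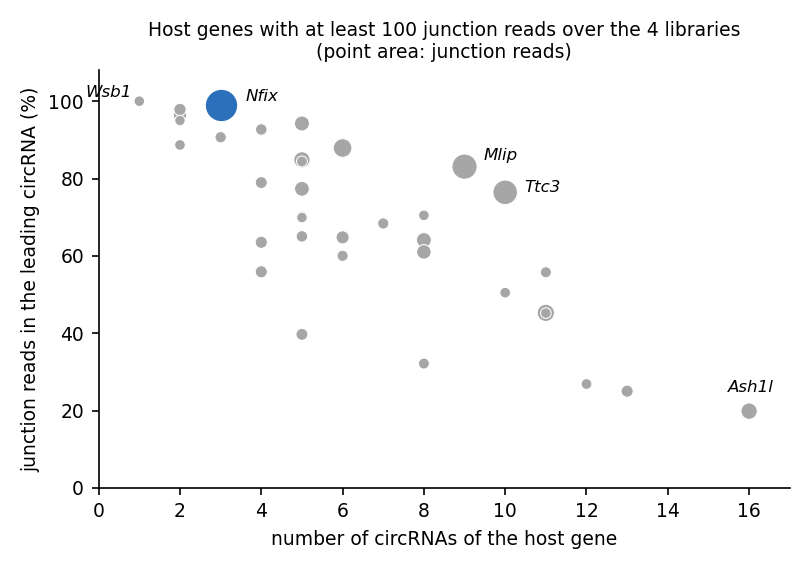
Share of junction reads in the leading circRNA, in percent, against the number of circRNAs of the host, for the 37 host genes with at least 100 junction reads over the 4 libraries. Point area is proportional to reads, and Nfix is the blue point, with 3 circRNAs and 99.0% of its reads in 1 of them.

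The ring of Nfix is short. Its span of 531 bases compares with a median of 8809 for the 3731 exonic circRNAs, and 3.78% of them were shorter. Between 400 and 700 bases there were 136 exonic circRNAs. Their median was 3 reads over the 4 libraries, the same as for all 3731 exonic circRNAs. The Nfix ring, with 778 reads, was the 1 of these 136 with at least 100, against 17 of all 3731 exonic circRNAs. The next was a ring of Cdyl, a gene for a chromodomain corepressor, with 72.

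The span of 531 bases occurred in 2 exonic circRNAs, and the other one came from the paralog Nfib (ENSRNOG00000009795). It lies on the minus strand of chromosome 5, from 100640453 to 100640984, and had 2 reads in sham replicate 1 and 0 in the other libraries. Both rings thus come from members of 1 gene family, with the same span and class and very different read counts. A second Nfib ring, from 100493404 to 100523952, is exonic, spans 30548 bases and also had 2 reads in sham replicate 1 alone. Nfia and Nfic had no listed circRNA. The Nfib rings did not reach the filter, so the family beyond Nfix gave no test between groups. The handling of reads that align to more than 1 paralog is not stated in the labels or file headers.

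Schwann cells, the glia of the nerve, depend on a set of transcription factors that includes Sox10, Egr2 and Zeb2. Of 36 listed genes of this kind, 6 were detected as hosts, and none reached the filter for the test. The members with most reads were Zeb2 (5 and 0 reads after crush, 3 and 2 after sham), Tead1 (0 and 0, 2 and 7) and Nab1 (0 and 8, 0 and 0). The 6 summed to 14 and 8 reads in crushed nerve and to 5 and 12 in sham nerve, with overlapping groups. Sox10, Egr2 and Jun had no listed circRNA.

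Of 107 other listed transcription factor genes, 52 were detected and 16 tested. None was called (edgeR, adjusted p under 0.05), against 2.3% of all 434 tested hosts, and DESeq2 called 0, against 7.14%. An unadjusted p under 0.05 was found for 4 of the 16 and for 111 of the 434, so the list lay near the share over all hosts. Their median log2 change was 0.35, against 0.11 for all tested hosts, with 10 of 16 fitted higher, against 232 of 434. Smad4, which carries TGF-beta and BMP signals to the nucleus, had 37 and 52 reads in crushed nerve against 19 and 23 in sham nerve, a log2 change of 1.28 ± 0.41 (edgeR adjusted p = 0.105). Tshz2, a zinc finger homeobox gene, had 5 and 9 against 36 and 29, a log2 change of -1.99 ± 0.51 (edgeR adjusted p = 0.0836).

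Summed over these 52 genes, junction reads numbered 187 and 227 in crushed nerve and 207 and 202 in sham nerve. In sham nerve the single gene Nfix had 1.28 and 1.72 times their sum, and after crush 0.358 and 0.467 times. This ratio within a library needs no scaling between libraries, but it reuses the Nfix reads on which the gene was chosen. The summed SRPBM of the 52 stood at 13.6 ± 0.011 in crushed nerve and 15.5 ± 0.57 in sham nerve (SD, n = 2, exact permutation p = 0.333, two-sided, the smallest that 2 against 2 can give). The SRPBM summed over all circRNAs went the same way, at 598 and 540 after crush and 657 and 686 after sham. The raw counts of the 52 overlapped between groups.

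By profile over the 4 libraries, the hosts nearest to Nfix were Uvrag, Ssbp2, Lama2, Dnah11 and Lrrc16a. Nearness was the Euclidean distance between log2 CPM values centred on each gene's mean, and it was 0.25, 0.31, 0.40, 0.41 and 0.46 for these 5, against a median of 2.09 over 433 hosts. Uvrag, an autophagy and endosome gene, had 10 and 16 reads in crushed nerve against 36 and 61 in sham nerve. Ssbp2, a gene for a cofactor of LIM-domain transcription complexes, had 4 and 6 against 19 and 20. Lama2, a laminin chain of the Schwann cell and muscle basement membrane, had 0 and 2 against 7 and 8. For Dnah11, an axonemal dynein gene, the counts were 0 and 2 against 5 and 7, and for Lrrc16a, a regulator of actin capping, 0 and 0 against 5 and 6. The last 3 rest on 17 or fewer reads each and passed the filter through the sham libraries alone. Their fitted log2 changes were -2.58 ± 1.21 (SE), -2.27 ± 1.27 and -5.40 ± 1.49, against -1.63 ± 0.29 for Nfix. Uvrag and Ssbp2 had -1.70 ± 0.50 and -1.73 ± 0.54. All 5 hosts, like Nfix, were higher in both sham libraries, which follows from their choice by likeness to Nfix. With the correlation in place of distance, 2 of the 5 (Uvrag and Ssbp2) remained among the nearest 5.

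**Figure D5:**
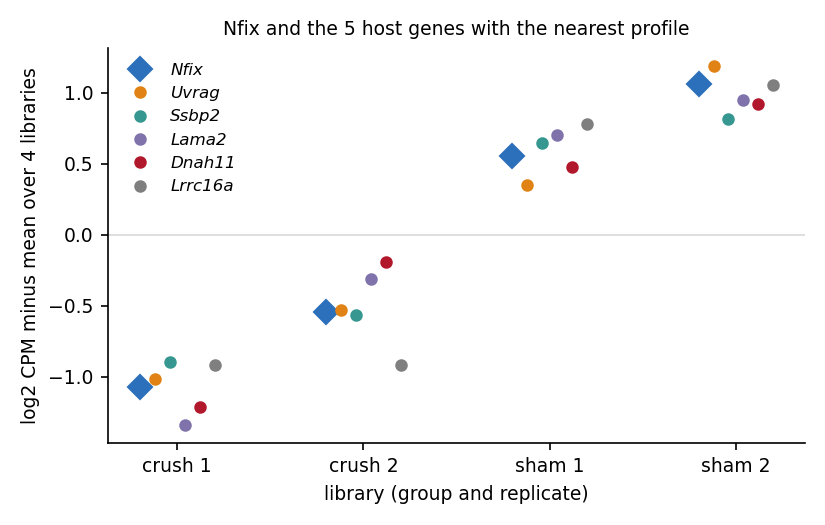
Log2 CPM of summed junction reads, minus the mean over the 4 libraries, for Nfix (diamonds) and the 5 host genes with the nearest profile (circles), in each library. All 6 lie below 0 in both crush libraries and above 0 in both sham libraries, which follows from choosing the 5 by likeness to Nfix.

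Host genes that mark cell types of the nerve were counted beside Nfix. As circRNA hosts, 10 of 24 leukocyte marker genes were detected, with 76 and 71 reads in crushed nerve and 0 in both sham libraries. All 5 of those tested fitted higher, against 232 of all 434 tested hosts. Of the 5, edgeR called 1 higher and DESeq2 3, against 1.84% and 5.76% of all hosts. With 0 reads in sham nerve, the 5 passed the filter through the crush libraries alone, which fixed their direction. Csf3r, the receptor gene of a neutrophil growth factor, was the one called by edgeR (28 and 16 reads against 0 and 0, edgeR adjusted p = 0.0490). The others named by reads were Syk, an immune receptor kinase gene, with 13 and 12 (edgeR adjusted p = 0.0573), and Dock8, a leukocyte migration gene, with 8 and 12 (edgeR adjusted p = 0.0752), against 0 in sham. Ptprc, the pan-leukocyte gene, had 2 reads, in crush replicate 1.

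Of 30 skeletal muscle markers 6 were detected, with 76 and 84 reads in crushed nerve against 209 and 241 in sham nerve. Nearly all came from Mlip, and the other 5 (Dmd, Mybpc2, Myh1, Neb and Ryr1) summed to 0 and 5 after crush and 5 and 15 after sham. Mlip was the 1 member tested and was not called (edgeR adjusted p = 0.0522), though DESeq2 called it, as 1 of the 1.38% of hosts that it called lower. The muscle genes Ttn, Acta1 and Ckm had no listed circRNA.

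Of 24 Schwann cell and myelin markers 6 were detected, with 4 and 3 reads in crushed nerve and 9 and 28 in sham nerve, of which Dst, a cytoskeletal linker gene, had 17 in sham replicate 2. None of the 6 reached the filter. Cdh19, a cadherin gene of the Schwann cell lineage, had 2 and 0 reads against 3 and 3, and Mpdz, a scaffold gene, 0 and 0 against 4 and 2. The myelin gene Mbp had 3 reads in sham replicate 2, and Prx, a periaxin gene of myelinating Schwann cells, had no listed circRNA. Of 20 fibroblast and perineurial markers 5 were detected, with 3 and 11 reads against 27 and 19. Tenm2, a teneurin gene, had 3 and 4 against 18 and 9 (edgeR adjusted p = 0.192), and Bnc2, a zinc finger gene of fibroblasts, 0 and 0 against 7 and 5 (edgeR adjusted p = 0.0836). Both passed the filter through the sham libraries alone, which fixed their direction. Neither was called by edgeR or DESeq2, and Dcn, the decorin gene, had 7 reads, in crush replicate 2. Of 15 endothelial and pericyte markers 6 were detected, with 8 and 11 reads against 7 and 13. Flt1, a VEGF receptor gene and the 1 member tested, had 8 and 8 against 4 and 4 (edgeR adjusted p = 0.352). It passed the filter through the crush libraries alone, which fixed its direction. Tek, an angiopoietin receptor gene, had 3 and 3 reads in sham nerve and 0 after crush, and Ets1, a transcription factor gene, 3 reads in crush replicate 2. The parts of these cell types in the Nfix values were not tested. The linear Nfix transcript was not analysed here.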

How the data were processed

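The authors deposited, per the file headers, for each of the 4 libraries the back-splice junction read counts of 4942 circRNAs and the same reads as a signal, SRPBM, which was the count times 1 constant per library (0.0725 and 0.0598 after crush, 0.0729 and 0.0786 after sham). The total behind it and the circRNA caller are not given in the sources used here. Rnor_6.0, BWA, CASAVA 1.8 and edgeR are named in the submitters' processing notes, with no step. Coordinates are as deposited, with the base convention unstated.

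Counts were summed per host gene, without 3 circRNAs that have 2 hosts. Host genes, and circRNAs separately, with at least 5 reads in at least 2 libraries were fitted with edgeR 4.0.16's quasi-likelihood test in R 4.3.3 (TMM over the tested rows, two-sided, Benjamini-Hochberg, threshold 0.05). Library totals over the tested rows, as in an earlier treatment of these data, replaced full totals after the calls of both were seen. DESeq2 1.42.0, other scalings and filters, a replicate block and leaving out each library were alternatives. Profiles used log2 CPM with a prior count of 2.

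The gene, the lists and the rule for named genes (Nfix and its family, the 5 highest hosts of sham nerve, the 5 nearest profiles, and per list the 3 members with most reads and any called) were chosen with earlier results of these data known. Other genes named for a rank, a leading share, a span or as undetected markers were chosen after their values were seen. Some genes that the rule or the lists would name are not reported here. P-values measure the spread between libraries, which may be technical. No sequence of the rings was used here.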

Additional observations from a re-analysis of the deposited data

How the results depend on the processing

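The direction of the Nfix change was negative under every setting run, all of which reuse the libraries on which Nfix was chosen. Summed Nfix moved by more than the replicate SD of 0.32 (log2) with SRPBM totals (-2.06) and in 2 of the 4 leave-one-out fits (-1.26 without crush replicate 1, -2.03 without sham replicate 1), and by less in the other two. In a fit with 1 library in a group, that library is assumed to vary like the others. With the replicate number as a replicate block it was -1.63. The numbers share no stated origin, and same-numbered libraries deviated with r = -0.055 over 434 host genes.

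The counts of called hosts (8 higher, 2 lower) were unstable. They were 25 and 6 with DESeq2, 30 and 14 with at least 10 reads, 27 and 12 with no filter, 18 and 6 with the replicate block, 8 and 6 with SRPBM totals, 5 and 3 with plain totals, and 0 and 0 with at least 2 reads or with TMM over all rows (added after seeing the data). With full library totals, the version fitted first, they were 11 and 3. In the main fit, 111 of 434 hosts had an unadjusted p under 0.05. Leaving out 1 library gave 0 to 73 higher and 0 to 11 lower, with 0 and 0 without crush replicate 2 and 73 and 11 without sham replicate 2. The Nfix share depends on the total: 4.54% (sham) and 1.32% (crush) of exonic reads, and 7.50% and 2.75% of reads of circRNAs called in all 4 libraries. With log2(SRPBM + 0.1), 3 of the 5 nearest hosts remained. The cause of these differences was not tested.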
